A study of Mus musculus with 3 samples.

Results

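The mouse alpha-globin cluster on chromosome 11 holds the embryonic zeta gene Hba-x, the adult alpha genes Hba-a1 and Hba-a2 and the theta genes Hbq1b and Hbq1a. Its neighbours Nprl3, Mpg, Rhbdf1 and Snrnp25 lie on one side of it. These 9 genes, of 21851 protein-coding genes in the annotation, were taken by name from GENCODE M21 (basic set, mm10). Every DNase I peak and hotspot from 50 kb before the start of Snrnp25 to 50 kb after the end of Hbq1a was then collected, which gave the window chr11:32155415-32350873. The window held 84 of 281600 peaks and 61 of 224643 hotspots in the list of biological replicate 1. It held 20 of 89046 peaks and 20 of 82150 hotspots in the list of biological replicate 2.

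The samples were 3 DNase-seq libraries of MEL cells, an immortalized mouse line derived from erythroleukaemia. DNase I cuts DNA that is not packed into closed chromatin, and clusters of cuts mark promoters, enhancers and other sites occupied by proteins. Biological replicate 1 was made of 2 libraries, technical replicates whose deposited notes name one shared set of lists, and biological replicate 2 of 1 library. No treatment, induced differentiation, second cell type or control was given in the labels, and the source label names the strain only as MEL. The line is an established culture, so its genome need not match the C57BL/6J reference used for coordinates. Each biological replicate gave a single list, which leaves no spread to test against, so the values below are descriptions with the lists set side by side.

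In red cells, haemoglobin is built from alpha-like and beta-like chains, and the alpha-like genes are switched on by enhancers far upstream. Most of these enhancers lie inside introns of the housekeeping gene Nprl3, which is transcribed in the opposite direction to the globin genes. They are known to be bound by GATA1, TAL1, the NF-E2 complex and KLF1, while CTCF sites flank the domain. Marker genes were listed to set beside the label, with earlier results of these data known, so they are no independent check of it. Promoters of the red cell markers (Gata1, Klf1, Epor and others) held a peak for 8 of 9 found genes in replicate 1 and 7 of 9 in replicate 2. Slc4a1 lacked one in both lists and Alas2 in replicate 2. The shares over all protein-coding genes were 58.3% and 49.4%. Of the markers of T and B cells, 1 of 6 held a promoter peak in replicate 1 and none in replicate 2. For hepatocytes the counts were 2 and 1 of 4, for neurons 1 and 0 of 4, and for skin and gut epithelium 0 of 4 in both.

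The regulatory sequences on which the results turn are shown here with known binding words in capitals. Positions are given as the distance of a peak's centre from the start of Hba-x, negative on the side of Nprl3. The first 4 sequences are the 150-bp peaks of the replicate 2 list that lay in Nprl3 introns or between Nprl3 and Hba-x. They are printed from the reference on the plus strand of mm10, 5′ to 3′. Capitals mark a GATA word (AGATAA or AGATAG, and likewise TGATAA or TGATAG, on either strand) or the NF-E2 and AP-1 word (TGAGTCA on either strand).
The −30.6 kb peak, chr11:32245736-32245885: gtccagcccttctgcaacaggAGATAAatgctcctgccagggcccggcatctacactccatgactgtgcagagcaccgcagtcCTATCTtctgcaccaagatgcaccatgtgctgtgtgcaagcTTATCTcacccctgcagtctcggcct
The −25.3 kb peak, chr11:32251016-32251165: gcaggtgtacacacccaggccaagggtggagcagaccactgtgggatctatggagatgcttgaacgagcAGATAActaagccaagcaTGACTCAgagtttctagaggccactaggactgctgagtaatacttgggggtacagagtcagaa
The −11.1 kb peak, chr11:32265256-32265405: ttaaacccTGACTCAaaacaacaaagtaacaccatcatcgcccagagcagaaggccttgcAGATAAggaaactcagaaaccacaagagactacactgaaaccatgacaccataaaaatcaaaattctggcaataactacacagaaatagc
The −7.2 kb peak, chr11:32269096-32269245: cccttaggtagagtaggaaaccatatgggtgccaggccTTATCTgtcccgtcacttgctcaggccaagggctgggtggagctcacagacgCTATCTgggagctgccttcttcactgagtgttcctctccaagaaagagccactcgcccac

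The other sequences stand just before the starts of Hba-a2 and of the theta genes, with their counterparts. The GENCODE start of Hba-a1 lies 161 bp before its RefSeq start, so most of the counterpart at Hba-a1 lies inside the gene as GENCODE draws it. Each was found base for base in both copies, so each is printed once, with the GATA word of the alpha genes and the CTCF pattern of the theta genes in capitals.
Before Hba-a2, chr11:32296289-32296488, plus strand of mm10, the same as chr11:32283472-32283671 at Hba-a1: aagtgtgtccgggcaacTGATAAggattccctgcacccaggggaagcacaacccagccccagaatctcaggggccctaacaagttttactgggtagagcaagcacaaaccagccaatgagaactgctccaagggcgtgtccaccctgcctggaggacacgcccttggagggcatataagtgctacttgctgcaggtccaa
Before Hbq1b, chr11:32286859-32286963, plus strand of mm10, the same as chr11:32299964-32300068 before Hbq1a: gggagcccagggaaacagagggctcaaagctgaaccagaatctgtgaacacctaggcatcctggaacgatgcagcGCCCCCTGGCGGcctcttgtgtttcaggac

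A peak score in these lists is a whole number from 1 to 150 on a scale that no label or header explains. Scores were therefore ranked only within a list, and a percentile is the rank of a peak among all peaks of its own list. In replicate 1 the window's peaks scored from 37 to 149 with a median of 88, above the list's median of 73. In replicate 2 they scored from 20 to 97 with a median of 41.5, above the list's median of 32. The peaks above their list's median numbered 52 of 84 and 13 of 20, and 9 and 2 fell in the top 10% of their lists.

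The window held more peaks than most stretches of its length. Those stretches were not matched for gene content, whereas the window was drawn around named genes. Among 13467 stretches of the same length tiled over the chromosomes, the median number of peaks was 11 in replicate 1 (quartiles 2 and 35) and 3 in replicate 2 (quartiles 0 and 11). As many peaks as in the alpha-globin window were held by 1.69% of these stretches in replicate 1 and by 8.82% in replicate 2. Hotspots, the broader regions in which cuts were enriched, covered 18.8% of the window in replicate 1 and 2.95% in replicate 2. Their median widths were 316 and 254.5 bp, against 286 and 253 bp in the whole lists. The −log10 q value that the authors gave each hotspot stops at 100, and 36 of 61 and 6 of 20 hotspots stood at this limit, where 52.4% and 44% of the whole lists did.

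**Figure D1:**
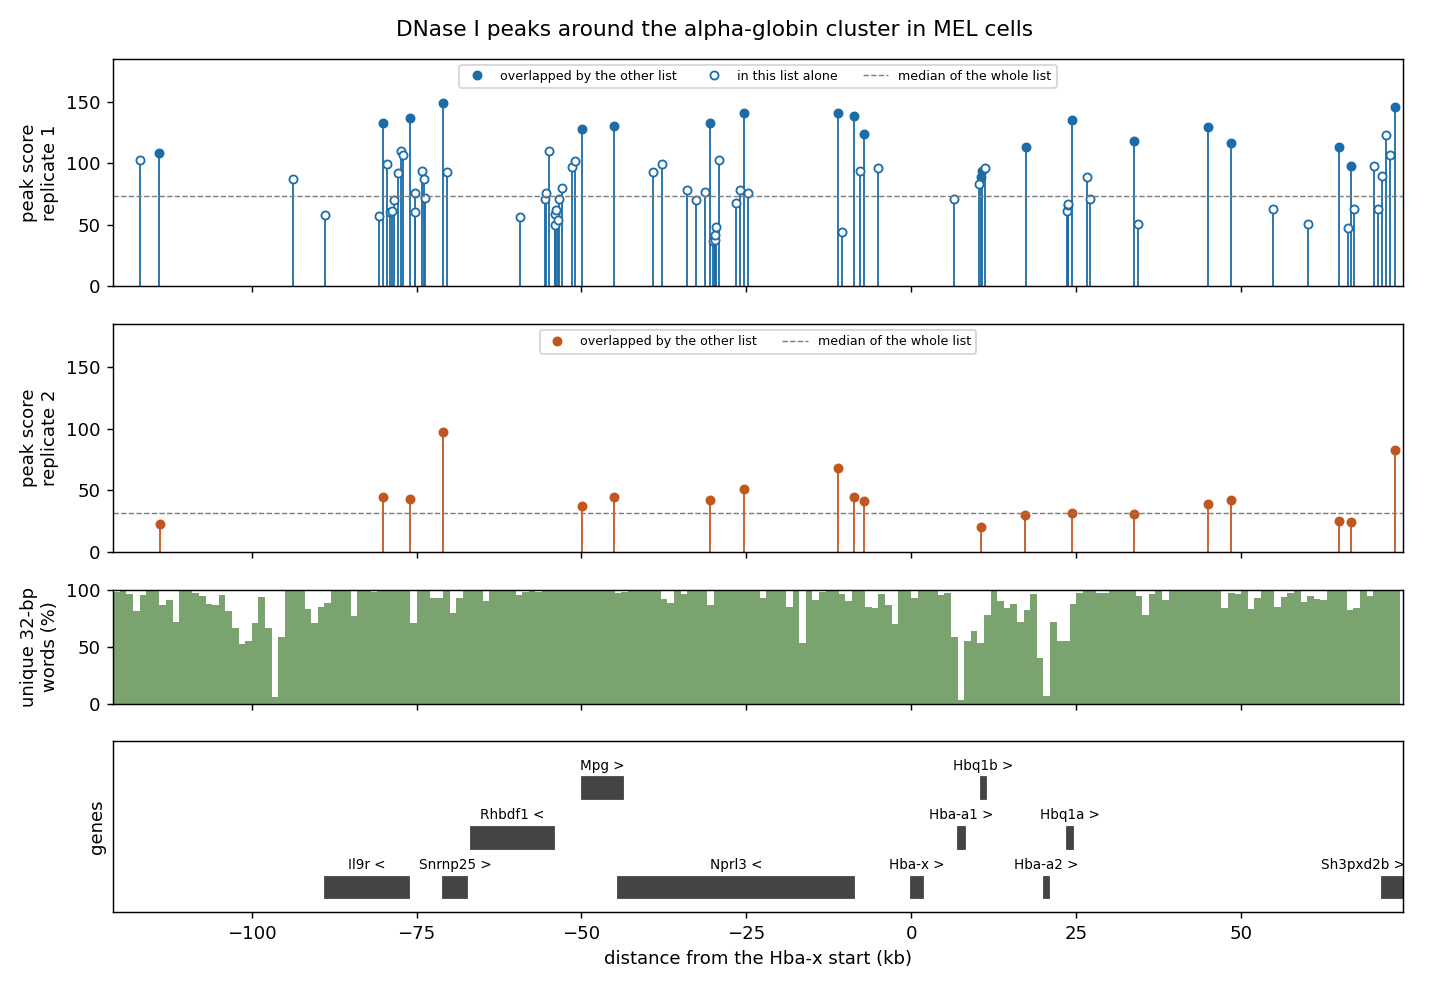
Peak scores (vertical axis, one panel per list) by distance from the Hba-x start in kb, above the percent of unique 32-bp words per 1 kb and the genes, with > or < for the direction of transcription. All 20 replicate 2 peaks are filled, since each is overlapped by a replicate 1 peak. No peak stands at Hba-x, Hba-a1 or Hba-a2 in replicate 2, and unique words dip at both adult alpha genes.

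Every one of the 20 replicate 2 peaks was overlapped by a replicate 1 peak by at least 1 bp (100%, Wilson 95% interval 83.9 to 100%), where 94.6% of the whole list was. In the other direction 21 of 84 replicate 1 peaks were overlapped (25%, interval 17.0 to 35.2%), where 30.2% of that list was. The overlapped replicate 1 peaks scored higher, with a median of 129 and a lowest score of 89, against a median of 72 and a highest score of 123 for the others. Of the 20 replicate 1 peaks with a score of 110 or more, 17 were overlapped. The share over all replicate 1 peaks at that score was not taken, so nothing is read from this count about the window. Across the 20 pairs of overlapping peaks the order of scores was alike, with a Spearman rho of 0.91 as a description, the points sharing their genomic place. The same 4 peaks ranked highest in both lists. They were the Snrnp25 promoter (149 and 97), a peak in intron 1 of Sh3pxd2b at 73.4 kb (146 and 83), the −11.1 kb peak (141 and 68) and the −25.3 kb peak (141 and 51).

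A promoter peak was counted when its centre lay within 1000 bp of an annotated start. In replicate 1, 7 of the 9 genes held such a peak, where 58.3% of all protein-coding genes did. In replicate 2, 5 of 9 did, where 49.4% of all genes did, and the same 5 held one in both lists, where again 49.4% of all genes did. With 9 genes these counts stand near the share over all genes, and nothing is read from them about the group. The genes with a promoter peak in both lists were Snrnp25, Mpg, Nprl3, Hbq1b and Hbq1a. Rhbdf1 and Hba-a1 held one in replicate 1 alone, and Hba-x and Hba-a2 in neither.

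**Figure D2:**
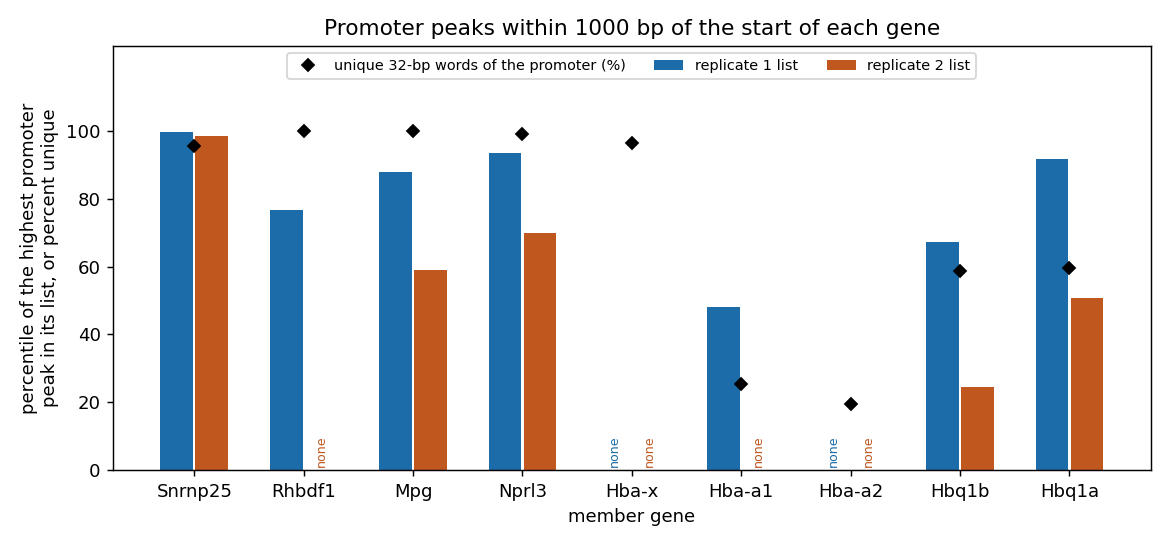
Percentile of the highest peak within 1000 bp of each gene's start among all peaks of its list (bars, vertical axis), and the percent of the promoter's 32-bp words found at one place in the genome (diamonds). Snrnp25 stands highest in both lists (99.6 and 98.5). Hba-a1 and Hba-a2 have the lowest unique share, 25.5% and 19.4%, and no replicate 2 peak.

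Snrnp25, a protein of the minor spliceosome, had the highest promoter score of the 7 genes with a promoter peak in replicate 1 and of the 5 in replicate 2. Its peak chr11:32205296-32205445 had the same position in both lists, centred 44 bp before the start at chr11:32205415-32208984 (plus strand). It scored 149 in replicate 1 and 97 in replicate 2, the 99.6th and 98.5th percentiles. A further peak of 93 lay in its intron 1 in replicate 1 alone. Next to it, the promoter of Il9r, the interleukin-9 receptor gene and no member of the set, carried 137 and 43.

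Rhbdf1, an inactive relative of the rhomboid proteases (chr11:32209585-32222300, minus strand), differed in form from its neighbours. Its start was surrounded by 6 replicate 1 peaks within 1000 bp, scoring 110, 59, 50, 62, 54 and 71. The highest, in intron 1, was centred 789 bp inside the gene, while the peak nearest the start, at 31 bp, scored 59, the 36.3rd percentile. In replicate 2 no peak lay within the gene or its promoter, and the nearest was 4151 bp away. All 32-bp words of this promoter were unique (100%).

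Mpg, a DNA glycosylase of base excision repair (chr11:32226511-32232700, plus strand), held 1 promoter peak in each list. It scored 128 in replicate 1, centred 40 bp before the start, and 37 in replicate 2, centred 60 bp before the start. A second peak in both lists, in Mpg intron 3 at −45.1 kb, scored 130 and 45, the 88.9th and 69.9th percentiles. That intronic peak lay just past the 3′ end of Nprl3 and had no GATA, CACCC, NF-E2, E-box or CTCF word in its 150 bp.

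Nprl3 encodes a subunit of the complex that restrains mTORC1 when amino acids are scarce. The gene spans chr11:32231963-32267707 on the minus strand, 35745 bp with 13 exons. Its promoter peak chr11:32267596-32267745, centred 36 bp inside exon 1, scored 138 in replicate 1 and 45 in replicate 2, at the same position in both. Inside the gene there were 18 replicate 1 and 4 replicate 2 peaks, of which 17 and 3 were intronic. The 2341 protein-coding genes within a factor of 0.8 of this length, on either side, had a median of 5 and 1 intronic peaks, and 3.63% and 27.4% of them had as many as Nprl3. The genes of like length with the nearest numbers of peaks were Snupn (18 and 4 peaks, a distance of 0 on the log2 scale of the numbers plus 1), Galnt6 and Tpst2 (19 and 4 each, a distance of 0.074).

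The intronic peaks of Nprl3 fell in 6 of its 12 introns. Intron 6, 6209 bp long, held 9 of the 17 replicate 1 peaks, with scores of 78, 70, 77, 133, 37, 38, 42, 48 and 103 from the 3′ side. The 133 peak at −30.6 kb was the only one of them in replicate 2, where it scored 42, at the same position. Intron 4 held 3 replicate 1 peaks of 78, 141 and 76, and the middle one, at −25.3 kb, was again the only one in replicate 2, with 51 at the same position. Intron 1 held peaks of 141 and 44 in replicate 1, and the first of these, at −11.1 kb, scored 68 in replicate 2, centred 40 bp away. In each of these introns the replicate 2 peak thus matched the highest replicate 1 peak.

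Introns 5, 8 and 9 held 1 replicate 1 peak each, of 68, 99 and 93, and none in replicate 2. Introns 2, 3, 7, 10, 11 and 12 held no peak in either list. Intron 2 is the longest, at 7456 bp, and 89.8% of its 32-bp words were unique. The longest stretch of the gene without a peak ran from −24.8 to −11.2 kb in replicate 1 (13.6 kb, 93.8% unique) and from −25.2 to −11.1 kb in replicate 2 (14.1 kb, 94.1% unique). No hotspot lay wholly inside it in either list.

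**Figure D3:**
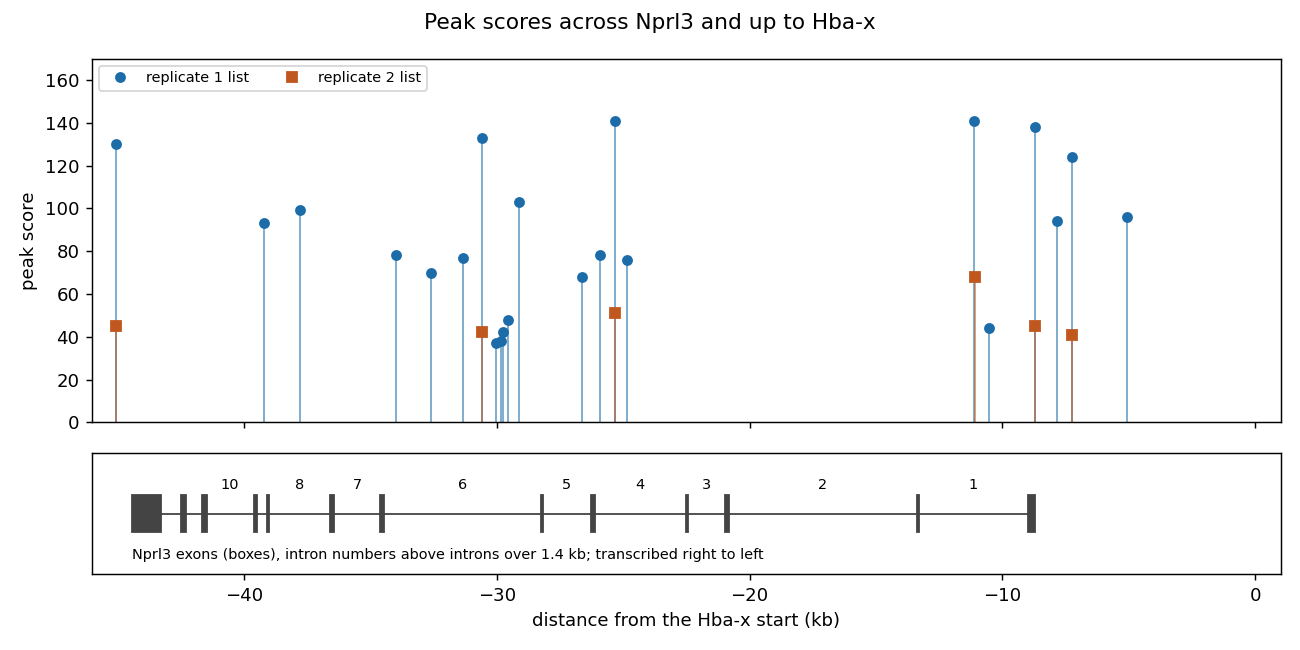
Peak scores (vertical axis) of both lists by distance from the Hba-x start in kb, above the exons of Nprl3. Replicate 2 has 1 peak each in introns 6, 4 and 1, under the highest replicate 1 peak there, and neither list has a peak in introns 2 and 3.

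Between the start of Nprl3 and Hba-x, replicate 1 had peaks of 94 at −7.8 kb, 124 at −7.2 kb and 96 at −5.1 kb. Replicate 2 had a peak of 41 at −7.2 kb alone. Beyond these peaks lay a stretch without a peak that contained all of Hba-x. It ran from −5.0 to 6.4 kb in replicate 1 (11.4 kb, 94.3% unique) and from −7.2 to 10.5 kb in replicate 2 (17.6 kb, 81.3% unique).

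The upstream enhancers of this locus are commonly called R1, R2, R3, Rm and R4, at about 31, 26, 21, 12 and 8 kb upstream of Hba-x. A name was given only to the peak nearest to that distance and within 1 kb of it. Rm fell on the −11.1 kb peak in both lists. R1 and R2 fell on different peaks in the lists: on −31.3 kb (77) and −25.9 kb (78) in replicate 1, and on −30.6 kb (42) and −25.3 kb (51) in replicate 2. The highest replicate 1 peaks within 1 kb of those points were also the −30.6 and −25.3 kb peaks, with 133 and 141. R4 fell on the −7.8 kb peak (94) in replicate 1 and on the Nprl3 promoter peak (45) in replicate 2, the −7.2 kb peak lying close by. No peak of either list came within 1 kb of the R3 point, where the nearest were 3.83 and 4.31 kb away. Distances here are from the GENCODE start of Hba-x, which differs from its RefSeq start by 200 bp. The enhancer names therefore depend on the start chosen and on rounding, and the peaks are called by distance here.

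The sequences printed above can be read beside these scores. The −30.6 kb peak held 3 GATA words, the −7.2 kb peak held 2, and the −25.3 and −11.1 kb peaks each held 1 GATA word and 1 NF-E2 word. Over the window, a GATA word was present in 17 of 84 replicate 1 peaks (20.2%, Wilson 95% interval 13.0 to 30.0%), against 30.6% of that list. In replicate 2 it was present in 8 of 20 (40.0%, interval 21.9 to 61.3%), against 33.4%. The words were not spread evenly over the window. Before Hba-x, 16 of 56 replicate 1 peaks and 7 of 11 replicate 2 peaks held one, and after it 1 of 28 and 1 of 9 did, a split chosen after the values were seen.

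The NF-E2 and AP-1 word was in 6 replicate 1 peaks (7.14%, against 6.42% of the list) and 2 replicate 2 peaks (10.0%, against 7.1%). Those 2 were the −25.3 and −11.1 kb peaks in Nprl3. In replicate 1, 4 of the 6 were in Nprl3 introns, at −25.3, −24.8, −11.1 and −10.5 kb. The CACCC words (CCACACCC, CCGCACCC, CCACGCCC or CCGCCCC), of the kind KLF factors bind, were in 7.14% and 15% of the window's peaks, against 6.66% and 11.2% of the lists. The E-box words (CAGATG or CAGCTG), of the kind TAL1 complexes bind, were in 25% and 10.0%, against 20.2% and 19.6%. The composite of both, CTG then GATA with 7 to 9 bases between, was in 5.95% and 10.0%, against 6.54% and 7.66%. Its letters can overlap the GATA and E-box words. Its share moved with the width searched, to 0 of 84 and 1 of 20 peaks in 75 bp (lists 3.28% and 4.01%) and to 6 of 84 and 4 of 20 in 300 bp (lists 11.5% and 12.5%). All words were searched on both strands, and a match describes letters and does not show a bound site.

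The CTCF pattern, a core form of the motif, was in 4 replicate 1 peaks (4.76%, against 3.08% of the list) and 2 replicate 2 peaks (10.0%, against 6.03%). In replicate 1 they were the −114.0 kb peak (108), the peaks at the starts of Hbq1b (89) and Hbq1a (66), and the 64.9 kb peak (113). In replicate 2 they were the peak at the start of Hbq1b (20) and the 64.9 kb peak (25). In replicate 1 the pattern thus fell toward both ends of the window and at the theta genes. In 300 bp around the centres the pattern was in 9 replicate 1 peaks (10.7%, interval 5.74 to 19.1%, against 3.47% of the list) and 5 replicate 2 peaks (25%, interval 11.2 to 46.9%, against 6.51%), so its share depends on the width searched. In both theta promoters the pattern lay in the identical stretch printed above. Neighbouring replicate 1 peaks at each theta start share the same pattern at 300 bp. The replicate 1 interval counts them as separate peaks. The letters of the pattern were also chosen with the sequences in view. Neither list's interval therefore sets the window apart from the list.

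Of the 9 genes, 8 matched the RefSeq promoter table by symbol (GRCm38.p6, from upstream of the start to 50 bases after it), all but Rhbdf1. Among 32851 such promoters, 29.8% held a GATA word, 29.3% a CACCC word, 5.2% the NF-E2 word and 1.4% the CTCF pattern. The promoter of Hba-x held 2 GATA words, those of Hba-a1 and Hba-a2 1 each, and that of Snrnp25 2. CACCC words were found once each for Snrnp25, Mpg and Nprl3. The CTCF pattern was found once each for Hbq1b and Hbq1a and in none of the other 6.

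Hba-x, the embryonic zeta chain gene (chr11:32276400-32278116, plus strand), had no peak in its promoter or body in either list. The nearest peak centre was 5089 bp from its start in replicate 1 and 7229 bp in replicate 2. Of its promoter's 32-bp words, 96.4% occurred at a single place in the genome. Its sequence can therefore be told apart from the other globin genes at that word length.

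Hba-a1 and Hba-a2, the adult alpha chain genes, differ at 1 base of their 426-base coding sequences. Hba-a1 (chr11:32283511-32284465, plus strand) had 1 replicate 1 peak within 1000 bp of its start, chr11:32282756-32282905, 680 bp before it. This peak scored 71, the 48.2nd percentile, and the nearest replicate 2 peak was centred 3460 bp from the start. Hba-a2 (chr11:32296489-32297298, plus strand) had no promoter peak, the nearest lying 2758 bp away in replicate 1 and 2798 bp away in replicate 2. Only 25.5% and 19.4% of the 32-bp words of these promoters were unique, and none (0%) of those in their RefSeq promoters. A short read from such a stretch has more than one exact place in the reference, and the sources used here do not say how the authors treated such reads. A promoter without a peak and a promoter whose reads were not placed cannot be told apart at these genes.

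The duplication itself was measured by shared 32-bp words. The unit with Hba-a1 and Hbq1b spans chr11:32282700-32287570 (4871 bp) and the unit with Hba-a2 and Hbq1a chr11:32295535-32300675 (5141 bp). They share 2518 words, and 43.8% and 44.1% of their words were unique in the genome, where 91.0% of the window's were. The longest identical stretch is 1022 bp, chr11:32283321-32284342 and chr11:32296138-32297159. It begins 351 bp before the RefSeq start of Hba-a1 and 354 bp before that of Hba-a2, and it runs through most of each gene.

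In replicate 1, 4 peaks were centred in the unit of Hba-a1 and 3 in that of Hba-a2, and in replicate 2 the counts were 1 and 0. The 13 stretches of 50 bp or more that are identical in both copies, 5660 bp over both, contained the centres of 2 replicate 1 peaks and of no replicate 2 peak. This is 3.53 and 0 peaks per 10 kb, where the whole window had 4.3 and 1.02. Counts this small show neither a shortage of peaks in the identical sequence nor its absence. The replicate 1 peaks were in both copies of an 80-bp stretch at the theta genes. Hotspots covered 384 of the 5660 bp in replicate 1 and 141 in replicate 2, where they covered 18.8% and 2.95% of the window. The 1022-bp stretch had no hotspot in either copy or list. The 7964 bp between the units, 86.8% unique, held 2 and 1 peaks, the one in both lists at 17.3 kb (113 and 30). The other was the replicate 1 peak of 96 in exon 3 of Hbq1b, since each unit as drawn ends within its theta gene. The exon 3 peaks of Hbq1a were likewise centred past the end of its unit and are not in its counts.

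**Figure D4:**
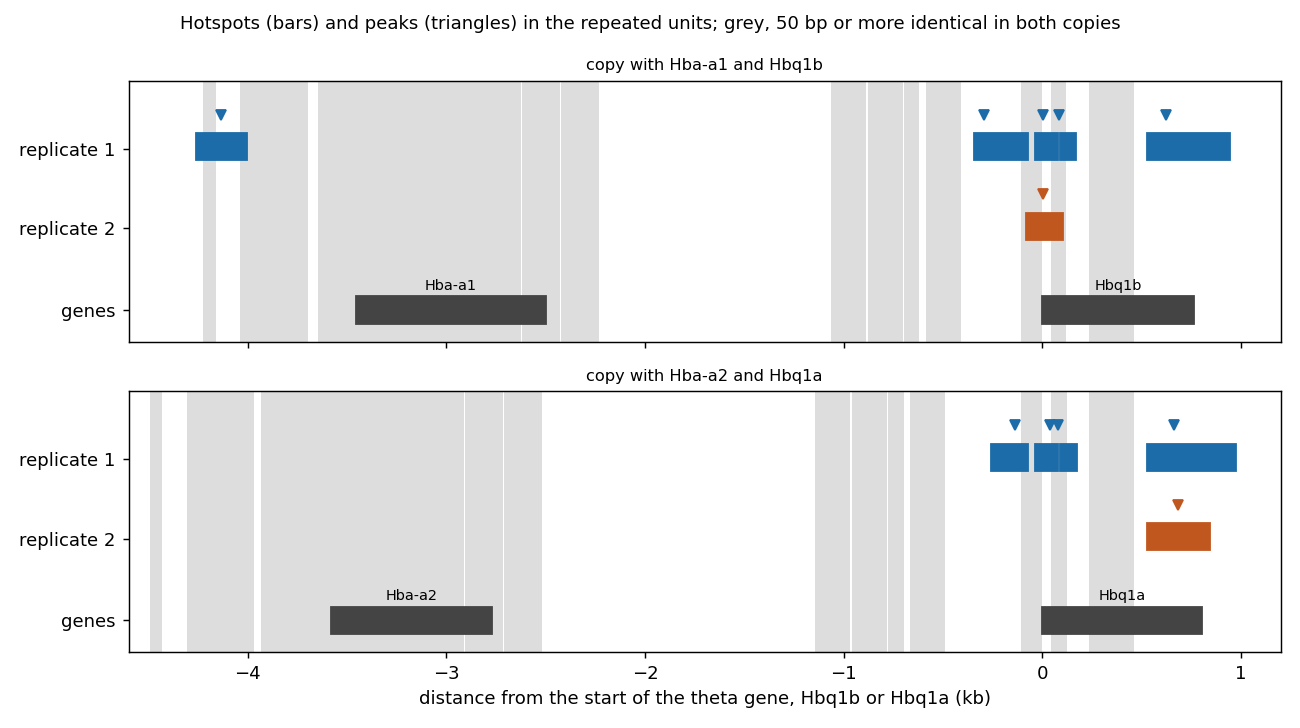
Both repeated units aligned at the start of their theta gene (horizontal axis, kb), with hotspots as bars and peak centres as triangles, rows for each list and for the genes. Grey marks stretches of 50 bp or more that are identical in both copies. Both adult alpha genes stand in grey without a bar. At the theta genes the replicate 1 bars recur at nearly the same distances in both copies, while the replicate 2 bars stand at opposite ends.

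The peak 680 bp before Hba-a1 had a close counterpart upstream of Hba-a2. Of its 150 bases, 142 are the same at chr11:32295591-32295740, and 73.1% of the words of each were unique. Neither list had a peak or a hotspot at that counterpart. The hotspot around the Hba-a1 peak had a −log10 q value of 5.7, where the other 8 replicate 1 hotspots in the units stood at the limit of 100.

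Hbq1b and Hbq1a, the theta genes, whose protein has no settled function, had more peaks within 1000 bp of their starts than Hba-a1 and Hba-a2. That reach takes in the whole of each theta gene (763 and 805 bp), and some of the peaks overlap each other. Unique words made up 58.8% and 59.7% of the theta promoters, against 25.5% and 19.4% at Hba-a1 and Hba-a2, so the counts are not on an equal footing. Their coding sequences are 426 and 435 bases long and share 408 bases, with 18 mismatches and 9 gapped bases. Hbq1b (chr11:32286965-32287727, plus strand) had replicate 1 peaks of 83, 89, 94 and 96, with 94.1%, 63.0%, 58.8% and 87.4% unique words. Hbq1a (chr11:32300069-32300873, plus strand) had replicate 1 peaks of 61, 66, 67 and 135, with 87.4%, 63.0%, 58.8% and 100% unique words. The scores around the starts were thus higher at Hbq1b, and the one at the 3′ end was higher at Hbq1a. The highest of them lay in exon 3 of each gene, 626 bp and 662 bp after the start.

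In replicate 2 the theta genes had 1 peak each, at opposite ends. At Hbq1b it was chr11:32286896-32287045, centred 6 bp after the start, with a score of 20, the 24.4th percentile. At Hbq1a it was chr11:32300676-32300825 in exon 3, 682 bp after the start, with a score of 32, the 50.7th percentile. The hotspot under the Hbq1b peak had 48.7% unique words and a −log10 q value of 2.47, and the hotspot under the Hbq1a peak had 93.7% and 100.

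The hotspots of the theta genes mirrored each other in replicate 1. Each gene had 4, and with the copies shifted by 13105 bp, 3 of 4 starts and 3 of 4 ends were the same to the base. Of these, 2 hotspots were identical at both edges, chr11:32286929-32287043 with chr11:32300034-32300148 and chr11:32287053-32287136 with chr11:32300158-32300241. The hotspot edges at chr11:32286894 and chr11:32286929 lie in a stretch identical in both copies, chr11:32286859-32286963. Those at chr11:32287043 and chr11:32287053 lie in another, chr11:32287008-32287087, and their counterparts at Hbq1a do likewise. The shared end at chr11:32287136 and the shared start at chr11:32287493 lie in no identical stretch of 50 bp or more. Of the words in the hotspots identical at both edges, 89.3% and 92.5% were unique. Whether identical sequence set any of these edges, or reads of one copy were placed at both, was not tested.

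On the far side of Hbq1a, peaks present in both lists lay at 33.7 kb (118 and 31), 44.9 kb (129 and 39), 48.4 kb (116 and 42), 64.9 kb (113 and 25) and 66.7 kb (98 and 24), besides the 73.4 kb peak in Sh3pxd2b given above. The 5 are intergenic in the annotation used. None of them held a GATA word, and the 64.9 kb peak held the CTCF pattern. Peaks per 10 kb in replicate 1 numbered 6.49 from the Snrnp25 promoter through that of Mpg. From there they numbered 4.85 through the Nprl3 promoter, 1.45 up to the Hba-a1 promoter and 5.16 through Hbq1a. In replicate 2 the same stretches had 0.866, 1.21, 0.724 and 1.55 peaks per 10 kb. The outer stretches had 3.88 and 0.612 before Snrnp25 and 3.67 and 1.22 after Hbq1a.

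The genes of the factors and partners named for this locus all held promoter peaks where they could be found by name. All 15 found of 16, among them Gata1, Zfpm1, Tal1, Lmo2, Ldb1, Klf1, Nfe2, Mafk, Ctcf and Rad21, held a promoter peak in both lists. As examples, the best peak in the promoter of Gata1 scored 141 and 71, that of Klf1 140 and 84 and that of Tal1 143 and 46. For Nfe2 the scores were 138 and 52, and for Ctcf 135 and 41. These examples do not lead the 15. Tcf3 scored highest of the 15 in both lists, and Med1 scored above every example in both. In the beta-globin cluster, 3 of 5 genes held a promoter peak in replicate 1 and 1 of 5 in replicate 2, Hbb-bt with 128 and 40. The shares over all protein-coding genes, 58.3% and 49.4%, are the background to these counts, and 3 of 5 stands near it. The embryonic genes Hbb-bh1 and Hbb-y held none in either list.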

How the data were processed

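DNase-seq peaks and hotspots of 3 MEL libraries were analysed. Per the labels, coordinates are in mm10. The authors deposited, for each biological replicate, a peak list whose column 7 is a score of unstated scale and a hotspot list with a −log10 q value. The 2 libraries of replicate 1 share 1 deposited set, so their spread is unknown. The aligner, the caller, the treatment of reads with several placements and the read depth are not given in the sources used here, and no column of another sample was present (0).

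Exact repeats among peaks were dropped (67 and 7). Peaks overlapping by at least 1 bp were shared. Promoters reached 1000 bp to either side of each start in GENCODE M21 basic. A 32-bp word was unique if it, on either strand, occurred once in the primary GRCm38 sequence. Motifs were searched in 150 bp around each centre. Wilson 95% intervals cover counting error over peaks only. Python 3.11.15, numpy 2.4.6, pandas 2.3.3, scipy 1.17.1, numba 0.67.0, pysam 0.24.0 and biopython 1.88 were used, and the word, overlap and motif code was tested on simulated data. Named genes were the 9 genes, other protein-coding genes overlapping the window, the beta-globin genes, the factors and partners, and the 3 genes nearest to Nprl3 in numbers of peaks. The genes and lists were chosen with earlier results of these data known, and the letters of the CTCF pattern and of the GATA and E-box composite with the sequences in view. Ahsp was not found by name in the annotation used.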

Additional observations from a re-analysis of the deposited data

How the results depend on the processing

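Keeping only the higher-scoring 50% of each list left 52 and 13 peaks in the window, 10 replicate 1 peaks in Nprl3 introns, and 3 of the 9 genes with a replicate 2 promoter peak. With lists of equal length, 63.3% of replicate 1 peaks in the window were overlapped. The shares over all genes and whole lists were not taken under these 2 settings. These values therefore cannot be set beside the 49.4% and 30.2% given above. In 75 bp around the centre, 11.9% of replicate 1 peaks held a GATA word, where 17.5% of that list did. The other 28 values, under other promoter widths, flanks, overlaps, intron definitions, word lengths or hotspots in place of peaks, stayed within 1.5 times the count or inside the interval. Using one list alone, the genes with a promoter peak numbered 5 to 7. With 24-bp words or narrower promoters, 12 of the unique shares of promoters were counted as moved and 6 were not. These shares are exact for the reference and their words overlap, so this count measures no spread. Hba-a1 had 21.2% with the shorter words and 12% in the narrower promoter, and Hba-a2 had 15.8% and 6.8%.

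No paired analysis was possible because each biological replicate has 1 list and there is no second group. Depth is unknown, so what a list could not detect is unknown.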
